A study of Mus musculus with 3 samples.

Results

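The mature miRNAs of JB6 exosomes were set against those of B16 melanoma cells, the deeply sequenced libraries of a mouse small-RNA series of 3 libraries. Of 1915 mature miRNAs listed in each deposited file, the 501 with 30 or more reads summed over this pair were compared, and the other 1414 had fewer. B16 is a mouse melanoma line, labelled as skin of strain C57BL/6J, and its library was made from whole cells. JB6 is a mouse skin line that the labels give as normal, strain BALB/c, and its library was made from exosomes, the small vesicles that cells release. The vesicles were collected by ultracentrifugation and the RNA was taken up with Trizol, per the labels, which name no culture medium, serum or treatment. With 1 library a side no difference could be checked in replicates, no test was run, and every interval covers counting error only. Cell line, strain, disease state and fraction (vesicles or cells) differed together and cannot be told apart.

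A miRNA gene is transcribed as a hairpin, from which a short RNA can be cut out of the 5′ arm (5p) and out of the 3′ arm (3p). Usually 1 arm, the guide, is loaded into an Argonaute protein and the other, the passenger, is degraded. The guide finds messenger RNAs by pairing through its seed, bases 2 to 8 from its 5′ end, so miRNAs with the same seed form a family with overlapping targets. Many hairpins lie side by side in clusters that are read as 1 transcript. Exosomes carry miRNAs out of the cell, in proportions that need not equal those of the cytoplasm.

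The sequences below belong to the miRNAs on which the results turn. They are the RefSeq mature sequences of build GRCm38.p6, printed 5′ to 3′ with the seed in capitals. The opening sets each share a seed, yet their members had unlike ratios:
miR-148a-3p: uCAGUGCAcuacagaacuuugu
miR-148b-3p: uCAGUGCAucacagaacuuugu
miR-152-3p: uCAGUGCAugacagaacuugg
miR-92a-3p: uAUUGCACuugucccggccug
miR-92b-3p: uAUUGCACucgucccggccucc
miR-25-3p: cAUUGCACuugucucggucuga
miR-32-5p: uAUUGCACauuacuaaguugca
miR-196a-5p: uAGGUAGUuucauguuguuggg
miR-196b-5p: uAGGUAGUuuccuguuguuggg
miR-146a-5p: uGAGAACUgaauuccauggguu
miR-146b-5p: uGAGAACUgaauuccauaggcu
miR-99a-5p: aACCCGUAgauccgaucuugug
miR-100-5p: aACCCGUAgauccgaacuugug
let-7b-5p: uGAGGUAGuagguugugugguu
let-7c-5p: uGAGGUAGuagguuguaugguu
let-7g-5p: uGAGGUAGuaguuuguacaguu
Counted from 1 at the 5′ end, miR-196a-5p and miR-196b-5p differ by the single substitution A12C, miR-99a-5p and miR-100-5p by U16A, and let-7b-5p and let-7c-5p by G17A. miR-146a-5p and miR-146b-5p differ by G18A and U21C, and miR-148a-3p and miR-148b-3p by C9U and U10C. None of these positions lies in the seed.

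Opposite arms of 1 hairpin are shown next, because their balance differed between the libraries, together with copies of a gene whose passenger arms are distinct:
let-7d-5p: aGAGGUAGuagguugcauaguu
let-7d-3p: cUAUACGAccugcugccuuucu
miR-423-5p: uGAGGGGCagagagcgagacuuu
miR-423-3p: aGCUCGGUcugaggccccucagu
miR-204-5p: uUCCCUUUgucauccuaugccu
miR-204-3p: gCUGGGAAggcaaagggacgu
miR-211-5p: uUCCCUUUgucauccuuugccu
miR-125b-1-3p: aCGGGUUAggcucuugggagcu
miR-125b-2-3p: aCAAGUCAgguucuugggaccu
miR-211-5p is the melanocyte relative of miR-204-5p, from which it differs by A17U. A last pair was abundant in the vesicles and rare or listed at 0 in the cells:
miR-206-3p: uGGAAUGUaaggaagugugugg
miR-615-3p: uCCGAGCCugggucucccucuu

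The files held 7925726 miRNA reads for B16 cells and 4495956 for JB6 exosomes, with 559 and 389 miRNAs listed above 0. The smallest listed count was 10, so a listed 0 stood for at most 9 reads, a share of at most 1.14 rpm (reads in a total of 1e6 miRNA reads) in B16 cells and 2.002 rpm in JB6 exosomes. A library of B16 exosomes exists too, but with 45677 miRNA reads its listed 0 hides up to 197.0 rpm, so it is quoted only where it can add a value.

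Most of the compared miRNAs took a smaller share of the reads in JB6 exosomes than in B16 cells. At the equal floor of 2.22 rpm, which is 10 reads of the JB6 library, 389 miRNAs were counted in JB6 exosomes and 476 in B16 cells. By the rule used throughout, a share at least 2-fold different with an exact 95% interval that excluded 1, 131 of the 501 miRNAs (26.1%) were higher in JB6 exosomes and 304 (60.7%) were lower. A further 55 were neither, and 11, listed at 0 in JB6 exosomes, were not resolved. Of the higher miRNAs 48 were listed at 0 in the cells, and of the lower ones 137 were listed at 0 in the vesicles. The differences were large: 67 miRNAs were higher by 10-fold or more, 20 of them by 100-fold or more, and 149 were lower by 10-fold or more, 19 of them by 100-fold or more. The median log2 ratio was -1.75. Over the 305 miRNAs counted on both sides, Spearman's rho between the shares was 0.54 and Pearson's r between their log2 values 0.56, as a description over miRNAs that share the same 2 libraries.

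The balance of higher and lower depended on scaling. miR-122-5p and miR-148a-3p took 46.9% of the JB6 reads, and totals without both raised every log2 ratio by 0.91. TMM factors raised every log2 ratio by 1.35 and gave 165 higher and 202 lower. DESeq2 size factors raised it by 1.45 and gave 166 and 194. Totals without the 10 most abundant miRNAs of either library, all left out on both sides, raised it by 0.62 and gave 148 and 263. The authors' own normalized values moved it by -0.19 and gave 127 and 325. The share of higher among all called miRNAs was 30.1% as reported and ranged from 28.1% to 46.1% over these scalings. No called miRNA was called in the opposite direction under any of them. All of them gave the same call for 127 of the higher and 194 of the lower miRNAs. The median of a group of miRNAs is therefore to be read beside the overall median of -1.75, since the distance between them is the same under every scaling.

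**Figure D1:**
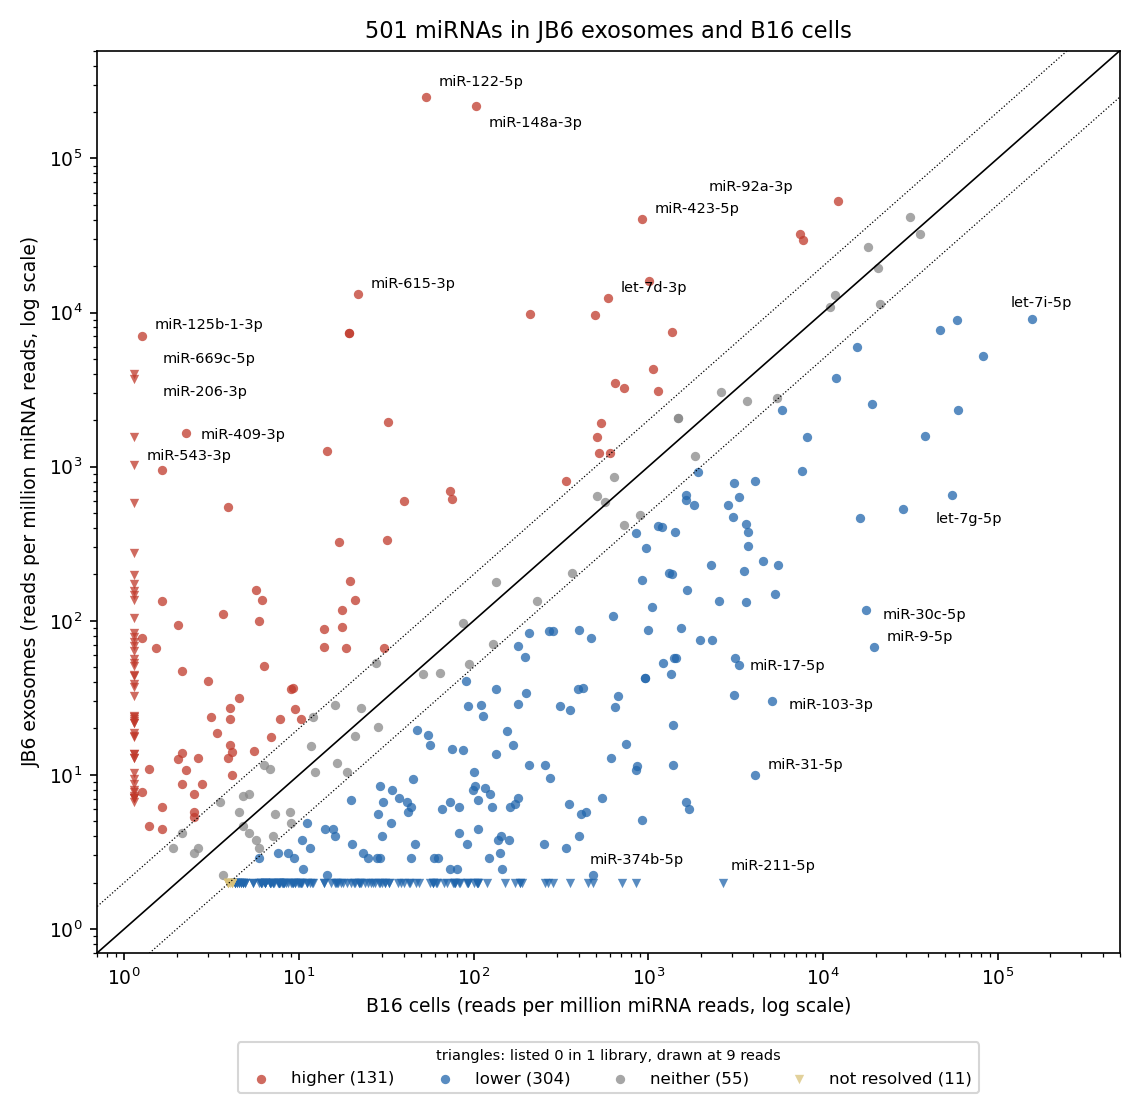
Share of each of the 501 compared miRNAs in B16 cells (horizontal) and JB6 exosomes (vertical), both in rpm on log axes. The solid line marks equal shares and the dotted lines 2-fold differences. Triangles are miRNAs listed at 0 in 1 library, drawn at 9 reads. The 304 lower miRNAs fill the area under the lines down to the row of 137 listed at 0 in the vesicles, and the 131 higher ones stand above them, led by miR-122-5p and miR-148a-3p.

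The miRNAs highest in JB6 exosomes were ones that B16 cells hardly contained. miR-122-5p, the main miRNA of hepatocytes, had 1129522 reads in JB6 exosomes and 421 in B16 cells. Its share of 25.1% was 4729.7-fold that in the cells (4299 to 5216). miR-148a-3p, abundant in liver and in milk, had 979782 and 819 reads, a share 2109-fold higher (1969 to 2261). Both are among the most abundant miRNAs of their home tissues and together led the vesicle library. miR-125b-1-3p, the passenger arm of 1 of the 2 Mir125b genes, had 31850 reads and 10, and was 5615-fold higher (3053 to 11710). The guide of that hairpin, miR-125b-5p, was 4.42-fold higher (4.29 to 4.56), with 14498 and 5776 reads, so reads of the passenger outnumbered those of the guide in the vesicles and not in the cells.

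Several highly ranked miRNAs came from genes known for a narrow tissue range. miR-206-3p, a skeletal-muscle miRNA whose hairpin lies in an exon of the lincRNA Gm28653 (chr1:20679010-20679082, plus strand), had 16619 reads and a listed 0, so its share was at least 3255-fold higher. miR-669c-5p, from an intron of Sfmbt2 (chr2:10509296-10509404, plus strand), had 18001 reads, the cells a listed 0, so its share was at least 3526-fold higher. These bounds put 9 reads in place of the listed 0, and counting error alone would let it fall to 1714-fold for miR-206-3p and 1857-fold for miR-669c-5p. miR-615-3p, from an intron of the Hox gene Hoxc5 (chr15:103014910-103015001, plus strand), had 59466 and 173 reads and was 606-fold higher (522 to 708). Its passenger miR-615-5p had 197 reads and a listed 0. miR-486a-5p and miR-486b-5p, red-cell and muscle miRNAs of the Ank1 gene, were listed with identical counts of 32994 and 153 reads, 380-fold higher (324 to 449), and are uncertain as separate entries. miR-676-3p, from an intron of the ectodysplasin gene Eda (chrX:100381097-100381185, plus strand), had 2623 reads and a listed 0, at least 514-fold higher. miR-365-2-5p had 2447 and 31 reads and was 139-fold higher (97.8 to 205).

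The miRNAs lowest in JB6 exosomes included the lineage miRNA of pigment cells. miR-211-5p, from an intron of the melanocyte gene Trpm1 (chr7:64205806-64205911, plus strand), had 21080 reads in B16 cells and a listed 0 in JB6 exosomes. It was at least 1329-fold lower, or 699.8-fold with counting error. In B16 exosomes it had 83 reads. miR-31-5p, a regulator of invasion in several tumours, had 45 reads in JB6 exosomes and 32353 in B16 cells and was 408-fold lower (305 to 559). miR-9-5p, a miRNA of neural progenitors, had 302 and 155066 reads and was 291-fold lower (260.2 to 327). miR-374b-5p, from an intron of the lincRNA gene Ftx beside Xist, had a listed 0 and 6731 reads, at least 424-fold lower. miR-196b-5p had 27 and 13473 reads and was 283-fold lower (194 to 430). All of them were well counted in the cells and at or under 302 reads in the vesicles.

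Several abundant families of B16 cells had low medians in JB6 exosomes. Of 9 let-7 guides, which hold back growth-promoting genes, 8 were lower and no member was higher, with a median log2 ratio of -4.12 against -1.75 overall. let-7g-5p had 2923 reads in JB6 exosomes and 435285 in B16 cells and was 84.5-fold lower (81.5 to 87.6). let-7i-5p, the leading miRNA of the cells, had 40626 and 1244154 reads and was 17.4-fold lower (17.2 to 17.6). let-7b-5p stood apart, with 58471 and 92385 reads, a ratio of 1.12 (1.10 to 1.13). Its near copy let-7c-5p, which differs by G17A, was 6.08-fold lower (6.02 to 6.15). With TMM and with DESeq2 factors let-7b-5p was called higher and 7 let-7 guides lower.

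All 5 miR-30 guides compared were lower, with a median of -6.56, and so were all 6 miR-30 passengers, with a median of -5.59. These counts were the same under every scaling. miR-30d-5p, the second miRNA of the cells, had 23631 and 652141 reads and was 15.7-fold lower (15.5 to 15.9). miR-30b-5p, from the same cluster, had 30 and 13035 reads and was 246-fold lower (173 to 366). miR-30c-5p was 151-fold lower (139 to 165). The miR-30 family, known for roles in epithelial differentiation and autophagy, thus spanned more than a 10-fold range among its own members.

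The miR-15/16 list held guides, which slow the cell cycle by acting on cyclins, and passengers. All 13 entries compared were lower, with a median of -4.65. Of these, 6 share 1 seed, and all 6 were lower, with a median of -4.85. miR-503-3p, the partner of the listed miR-503-5p, was not on the list. It was neither, or higher with TMM or DESeq2 factors. miR-16-5p had 238 and 9558 reads and was 22.8-fold lower (20.03 to 26.02). miR-15b-5p had 10 and 3848 reads and was 218-fold lower (119 to 456). With TMM and with DESeq2 factors 11 of the 13 were lower and none higher. miR-103-3p and miR-107-3p, which lie in introns of pantothenate kinase genes and act on lipid and insulin metabolism, were 169-fold (143 to 201) and 99.7-fold (63.0 to 168) lower. Of 5 miR-26 members 4 were lower and 1 was not resolved, with a median of -5.08 and miR-26a-5p 34.8-fold lower (33.3 to 36.3). All 7 members of the miR-181 family were lower, with a median of -3.52, and 5 of them with TMM or DESeq2 factors. miR-181a-5p was the mildest at 2.70-fold lower (2.59 to 2.81), and its ratio turned to just above 1 with DESeq2 factors. The miR-29 guides act on collagen mRNAs. Of 5 miR-29 entries, guides and passengers, 4 were lower and 1 was not resolved. Their median of -1.99 lay near that of all miRNAs. With TMM or DESeq2 factors 2 were lower and 3 not resolved.

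Seeds were compared among the 442 miRNAs with a matched sequence. In 5 seed families members with the same seed lay on opposite sides. The quotient of members within a family does not depend on how a library is scaled. With TMM or DESeq2 factors 4 of these 5 stayed split, the miR-146 seed did not, and the let-7 seed was split through let-7b-5p. In the miR-148/152 family, whose guides are printed above, miR-148a-3p was 2109-fold higher while miR-148b-3p was 8.17-fold lower (7.91 to 8.43) and miR-152-3p 6.44-fold lower (6.16 to 6.73). JB6 exosomes held 234 reads of miR-148a-3p for each read of miR-148b-3p, while B16 cells held 73.6 reads of miR-148b-3p for each of miR-148a-3p. In B16 exosomes, with 98 and 560 reads of miR-148a-3p and miR-148b-3p, the latter led by 5.71 to 1. The quotient differed 17222-fold between JB6 exosomes and B16 cells (15966 to 18589). Their hairpins lie apart, Mir148a outside annotated genes (chr6:51269812-51269910, minus strand) and Mir148b in an intron of Copz1 (chr15:103285125-103285221, plus strand).

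The Hox-cluster pair miR-196a-5p and miR-196b-5p, which repress Hox genes and differ by A12C, changed places as well. miR-196a-5p had 501 reads in JB6 exosomes and 29 in B16 cells and was 30.4-fold higher (20.9 to 46.0), while miR-196b-5p was 283-fold lower. Mir196b overlaps an exon of Hoxa9 (chr6:52230081-52230165, minus strand), and miR-196a-5p can come from Mir196a-1 on chromosome 11 or from Mir196a-2 in an intron of Hoxc5 (chr15:102973350-102973434, plus strand). The inflammation-induced pair miR-146a-5p and miR-146b-5p showed the same kind of exchange. miR-146b-5p had 72533 and 8019 reads and was 15.9-fold higher (15.6 to 16.3), and miR-146a-5p had 3504 and 24373 reads and was 3.95-fold lower (3.81 to 4.09), though neither with TMM or DESeq2 factors, at log2 ratios of -0.63 and -0.53. JB6 exosomes held 20.7 reads of miR-146b-5p per read of miR-146a-5p, B16 cells 0.329, and B16 exosomes 0.580.

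The seed of miR-92a-3p is shared by miR-92b-3p, miR-25-3p and miR-32-5p, and here all outcomes occurred. miR-92a-3p had 237054 and 96572 reads and was 4.33-fold higher (4.30 to 4.36). miR-92b-3p was 8.17-fold higher (7.48 to 8.94), miR-25-3p had 48780 and 87083 reads with a ratio of 0.987, and miR-32-5p, with 52 and 10946 reads, was 119-fold lower (91.0 to 160.0). With TMM and DESeq2 factors miR-25-3p was called higher. The remaining mixed seed was that of miR-125a-5p and miR-125b-5p, both higher, and miR-351-5p, which was 47.4-fold lower (36.6 to 62.5). Among the 442 miRNAs with a matched sequence, 44 seeds had 2 or more members. Relatives without one, such as miR-30b-5p and miR-30d-5p, are not counted in these seeds. Of the 44 seeds, 24 had all members lower, 4 had all members higher, 5 were split and 11 held members that were neither or not resolved. With TMM factors 15 had all members lower and 8 all higher, and with DESeq2 factors 14 and 8.

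The group of miR-10, miR-125 and miR-99/100, relatives that include Hox-cluster guides, lay above most others. Of 13 members 6 were higher, 3 lower and 4 neither, with a median of 0.55. With TMM or DESeq2 factors 10 were higher and 1 lower. miR-10b-5p had 186628 reads in JB6 exosomes and 248090 in B16 cells, a ratio of 1.33 (1.32 to 1.33). miR-99a-5p had 87643 and 163893 reads, a ratio of 0.943, and was higher with TMM or DESeq2 factors. miR-100-5p, which differs from it by U16A, had 44046 and 1670 reads and was 46.5-fold higher (44.3 to 48.9). The cells thus held 98.1 reads of miR-99a-5p for each of miR-100-5p, the JB6 exosomes 1.99 and the B16 exosomes 3.60. Among their passengers, miR-125b-1-3p and miR-125b-2-3p come from different genes that give the same guide. The former, from chromosome 9, was 5615-fold higher, and the latter, from an intron of Mir99ahg (chr16:77646273-77646343, plus strand), had 161 and 1070 reads and was 3.77-fold lower (3.19 to 4.48).

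Other families were split by arm or by member. In the miR-28/151 family, derived from a repeat element, all 3 of the 3p members compared were higher and all 3 of the 5p members were lower under every scaling, with miR-151-3p 3.82-fold higher (3.78 to 3.85) and miR-151-5p 15.4-fold lower (10.8 to 22.9). miR-221-3p and miR-222-3p, which act on the cell-cycle inhibitor p27, were 2.38-fold (2.262 to 2.501) and 9.62-fold (8.80 to 10.5) higher. In the p53-responsive miR-34 family, miR-34a-5p had a listed 0 and 1500 reads, at least 94.5-fold lower, while miR-34b-3p had 2672 and 315 reads and was 14.95-fold higher (13.3 to 16.9). The miR-23/27/24 clusters had 11 members, 9 lower and 1 higher, with a median of -1.69 near the overall one, and 4 were lower and 2 higher with TMM or DESeq2 factors. All 3 compared members of the miR-183/96/182 cluster were lower, or 1 with TMM factors, where 60.7% of all miRNAs were lower. Their median of -2.03 lay near the -1.75 of all miRNAs. miR-292a-5p, the only compared member of the stem-cell miR-290 and miR-302 clusters, was neither at 33 and 38 reads. miR-320-3p and miR-484, both made without the Drosha enzyme, went opposite ways at 19.4-fold higher (18.8 to 20.1) and 9.92-fold lower (9.32 to 10.6).

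Marker miRNAs of tissues other than skin were among the higher ones, and some lists were lower. The part that RNA of other tissues plays in these differences was not tested. Of 6 liver miRNAs 5 were in the files and 3 were compared, with miR-122-5p and miR-192-5p higher and miR-194-5p lower, or neither with TMM or DESeq2 factors, and miR-192-3p was listed at 0 in both libraries. The list summed to 25.2% of JB6 reads and 0.0686% of B16 cell reads, almost all of it miR-122-5p, which had 24 reads in B16 exosomes. miR-192-5p was only 2.34-fold higher (2.24 to 2.43). Of 7 red-cell entries 5 were compared and all 5 were higher under every scaling, with a median of 8.57 and sums of 1.68% and 0.00419%. These figures include both miR-486a-5p and miR-486b-5p, whose identical counts may be the same reads listed under 2 names. The call of miR-486b-3p was fixed by its listed 0 in the cells. miR-451a, a red-cell miRNA made without Dicer, had 606 and 13 reads and was 82.2-fold higher (47.7 to 155), miR-144-3p from the same transcript had 20 reads and a listed 0, and miR-144-5p was at 0 in both.

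Of 11 muscle miRNAs 4 were compared and all 4 were higher, at sums of 0.378% and 0.000353%. miR-206-3p made up nearly all of that sum. It and miR-1b-5p were listed at 0 in the cells, which fixed their call. miR-1a-3p had 21 and 11 reads, miR-133a-3p had 25 and a listed 0, and 6 members, among them the heart miRNAs miR-208a-3p and miR-208b-3p, were at 0 in both libraries. Of 9 leukocyte miRNAs 5 were compared, with 3 higher and 2 lower, at a median of 2.63 and sums of 1.70% and 0.414%, and none was lower with TMM or DESeq2 factors. The blood-cell markers among them were scarce: miR-142a-3p had 22 reads in JB6 exosomes and 0 listed in the cells, miR-223-5p had 58 and a listed 0, and miR-223-3p was at 0 in both. Of 5 pancreas and endocrine miRNAs 4 were compared, with 3 higher and 1 lower under TMM and DESeq2 factors too, at sums of 0.0607% and 2.87%. The 3 higher ones were listed at 0 in the cells, which fixed their call. Of the 4, miR-375-3p had 238 reads and a listed 0, so its share was at least 46.6-fold higher. miR-7a-5p, among the most abundant miRNAs of B16 cells at 227416 reads, had 2382 in JB6 exosomes and was 54.2-fold lower (52.0 to 56.4).

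Markers of the labelled tissue were few. Of 7 epithelial and keratinocyte miRNAs, miR-141-3p, miR-429-3p and the keratinocyte miRNA miR-205-5p were at 0 in both libraries, and the list summed to 35 reads in JB6 exosomes and 197 in B16 cells. The labelled skin origin of JB6 therefore has no abundant epithelial miRNA beside it here. miR-203-3p, another keratinocyte miRNA, had 13 and 47 reads, and its ratio turned to above 1 with TMM and DESeq2 factors. Of 5 melanocyte miRNAs 4 were compared, with 1 higher and 3 lower, or 2 lower with TMM or DESeq2 factors. In B16 cells the list summed to 0.274%, through miR-211-5p, and to 0.0279% in JB6 exosomes, through miR-204-3p. Of 10 mesenchymal miRNAs 3 were higher, 3 lower and 4 neither, and 6 were higher with TMM or DESeq2 factors. miR-199a-3p and miR-199b-3p, neither here and higher with those factors, had identical counts of 9276 and 11717 reads. These may be the same reads listed under 2 names. miR-143-3p, abundant in fibroblasts and smooth muscle, was nearly level at 144649 and 285130 reads, a ratio of 0.894, and higher with TMM or DESeq2 factors. miR-214-3p, with 890 reads and a listed 0, was at least 174-fold higher. Its call and that of miR-214-5p were fixed by a listed 0 in the cells. Of 10 neural miRNAs 7 were compared, with 6 lower and 1 neither under TMM and DESeq2 factors too, a median of -4.31 and sums of 0.299% and 2.83%. Both endothelial entries, miR-126a-3p and miR-126a-5p, were lower, with a median of -2.74, and 1 of them with TMM or DESeq2 factors.

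Depth allowed 341 scarce miRNAs to be compared, meaning those below 219 rpm in both libraries, which equals 10 reads of the B16 exosome library. They made up 0.593% of JB6 exosome reads and 1.16% of B16 cell reads. Of these 91 were higher (26.7%) and 204 lower (59.8%), 35 were neither and 11 not resolved, and their median of -1.67 was close to that of all miRNAs. In the B16 exosome library 320 of the 341 were listed at 0. After miR-214-3p the highest scarce miRNAs were miR-485-5p of the Dlk1-Dio3 region, with 777 reads and a listed 0, at least 152-fold higher, and miR-3095-3p, which had 700 reads and a listed 0, so its share was at least 137-fold higher. miR-5112 had 374 reads and a listed 0, at least 73.3-fold higher. The lowest scarce miRNAs were miR-34a-5p, then miR-330-5p with a listed 0 and 1470 reads, miR-132-5p with a listed 0 and 1454, and miR-7688-5p with a listed 0 and 1363. Each was at least 85.9-fold lower. miR-31-3p, the passenger of miR-31-5p, had a listed 0 and 1202 reads, at least 75.8-fold lower, so both arms of that hairpin were low in the vesicles.

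Neighbouring hairpins lay on the same side in some clusters, and other clusters came apart. Hairpins within 10 kb on 1 strand formed 38 clusters with 2 or more compared miRNAs, holding 166 entries. In 14 clusters every member was lower, or 5 with TMM factors. In 2 every member was higher, in 11 higher and lower members met, and in 11 others some members were neither or not resolved. Some miRNAs, miR-16-5p among them, can come from hairpins of 2 clusters and count in both, so the clusters are not separate units. The 60.7% lower over all miRNAs is a share of miRNAs, not of clusters. The cluster with the most compared miRNAs lay in the imprinted Dlk1-Dio3 region on chromosome 12. The miRNAs of that region are read from the maternal chromosome in embryo, placenta and brain. Between Mir379 and Mir410 (chr12:109709060-109747960, plus strand, 39 annotated hairpins) 18 of 19 compared miRNAs were higher and 1 was lower, with a median of 4.31 and summed reads of 19045 in JB6 exosomes and 228 in B16 cells. Most of the 19 were listed at 0 in the cells, where the read minimum left higher as the only possible call. miR-543-3p had 7009 reads and a listed 0, at least 1373-fold higher, and miR-409-3p had 7462 and 18, 731-fold higher (462 to 1234). Upstream, between Mir493 and Mir127, all 4 compared miRNAs were higher, and all but miR-127-3p were listed at 0 in the cells. miR-127-3p had 5685 and 115 reads and was 87.1-fold higher (72.5 to 106). The exception was miR-541-5p with a listed 0 and 48 reads, which was lower by the share used here and by the authors' values, and not resolved under the other planned scalings. Over the whole region 25 of 26 compared entries were higher under every scaling, while 69 of its 99 entries were at 0 in both libraries. Most of the 25 likewise had a listed 0 in the cells, which fixed their call. B16 exosomes had 32 reads of miR-127-3p and 14 of miR-379-5p.

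The Sfmbt2 intron cluster, a rodent-specific array active in placenta, had 4 compared miRNAs, all listed at 0 in B16 cells. Their call of higher was thus fixed by the read minimum, and 40 of the 49 listed entries were at 0 in both libraries. The 18241 summed reads of the cluster in JB6 exosomes were almost all miR-669c-5p. miR-669a-3p and miR-669o-3p, members of a repeated family, had 97 reads each.

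The oncogenic Mir17 to Mir92-1 cluster (chr14:115043671-115044506, plus strand), which is read as 1 transcript, came apart. Of its 11 compared miRNAs 10 were lower, or 7 with TMM or DESeq2 factors, with a median of -4.47, and miR-92a-3p was higher. Over this cluster and its paralogues 17 of 21 compared entries were lower and 3 higher, or 13 and 4 with TMM factors. miR-17-5p had 258 and 24765 reads and was 54.5-fold lower (48.2 to 61.8), and miR-20a-5p had 668 and 42339 and was 36.0-fold lower (33.3 to 38.9). JB6 exosomes held 919 reads of miR-92a-3p per read of miR-17-5p, B16 cells 3.90 and B16 exosomes 4.74, so the quotient was 236-fold larger in JB6 exosomes than in B16 cells (208 to 267). miR-92a-3p can also come from Mir92-2 on chromosome X, whose partners miR-20b-5p and miR-106a-5p were listed at 0 in JB6 exosomes. A further partner, miR-363-3p, went the other way: the vesicles held 13 reads of it, while the cells were listed at 0. It stayed under the read minimum and was not compared. The paralogous Mir25 to Mir106b cluster in Mcm7 held a like contrast, with 3252 reads of miR-25-3p per read of miR-106b-5p in JB6 exosomes, 32.7 in B16 cells and 32.8 in B16 exosomes.

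Among other clusters, Mir212 to Mir132 and Mir130b to Mir301b were lower throughout, and 2 larger ones in part. Mir212 and Mir132, activity-regulated genes, summed to 26 reads in JB6 exosomes and 8243 in B16 cells. Mir130b and Mir301b summed to 122 and 12434. In the chromosome X cluster from Mir450b to Mir322, 9 of 11 members were lower and miR-351-3p was higher at 2.82-fold (2.10 to 3.81). Mir450b to Mir322 also held miR-503-3p, level at a ratio of 1.11 and higher with TMM or DESeq2 factors, beside its partner miR-503-5p with a listed 0 and 448 reads. In the Clcn5 cluster from Mir500 to Mir532, 5 of 8 were lower and 3 neither, and miR-532-5p, its main product, had 13780 and 20770 reads at a ratio of 1.17 (1.145 to 1.195). With TMM factors 2 of the 8 were higher, miR-532-5p among them, and 3 lower, and with DESeq2 factors 2 and 2. Grouping hairpins within 50 kb gave 45 clusters, of which 5 were higher throughout.

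**Figure D2:**
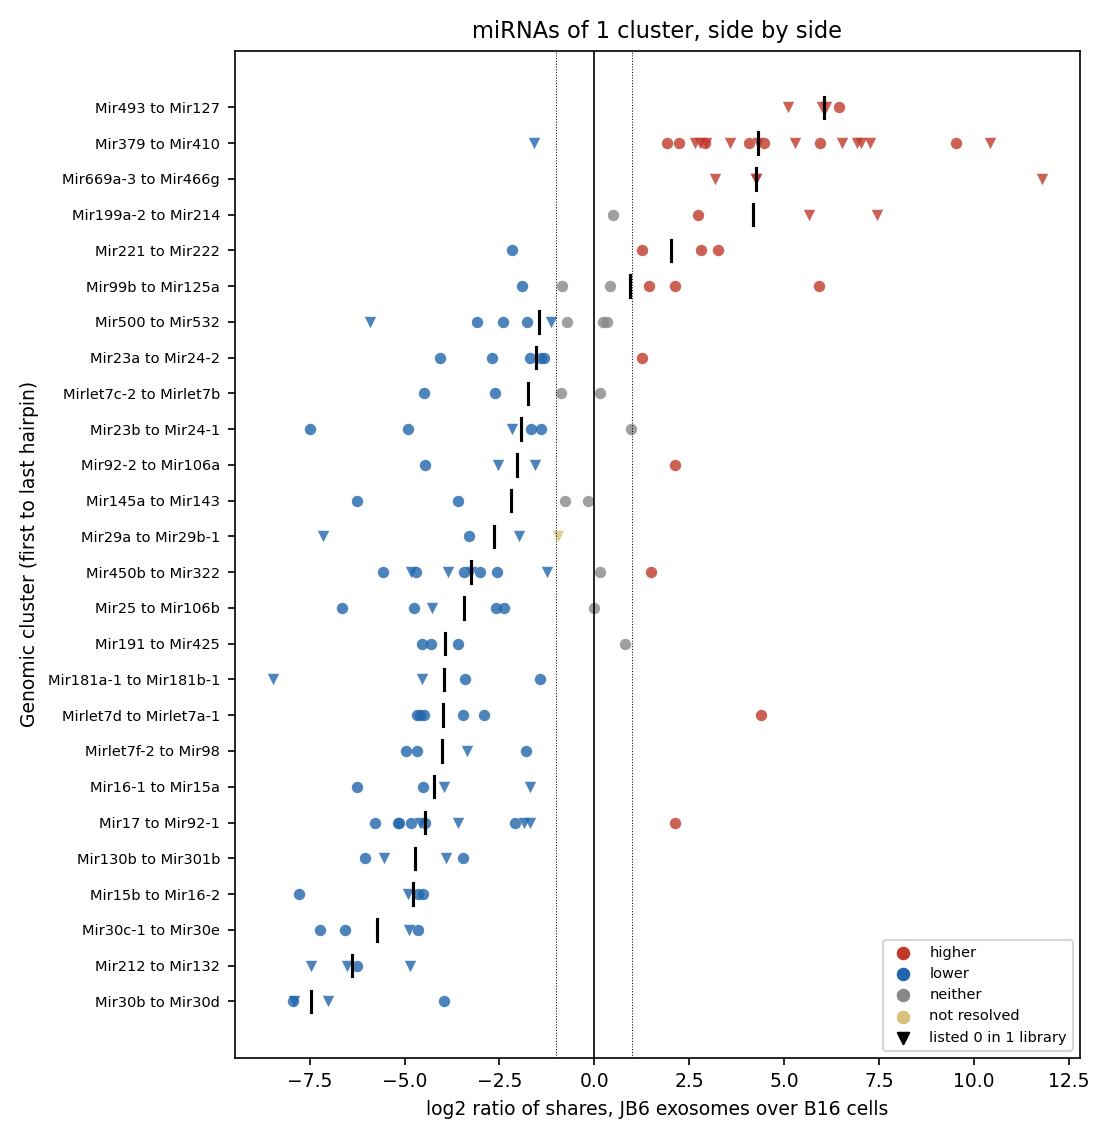
Log2 ratio of shares, JB6 exosomes over B16 cells, for each compared miRNA in the 26 clusters with 4 or more such miRNAs. A bar marks each cluster's median, dotted lines mark 2-fold, and triangles are miRNAs listed at 0 in 1 library, set to 9 reads. The Dlk1-Dio3 and Sfmbt2 clusters lie to the right, miR-92a-3p lies apart from the rest of Mir17 to Mir92-1, and let-7d-3p apart from the rest of Mirlet7d to Mirlet7a-1. With TMM or DESeq2 factors every point moves right by 1.35 or 1.45.

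The arm balance within a hairpin needs no scaling, and it shifted in many hairpins. Of 749 arm pairs in the files, 136 hairpins had 30 or more reads over both arms in each library. The 3p share was higher in JB6 exosomes by at least 10 percentage points, with an exact interval of the odds ratio that excluded 1, in 26 hairpins (19.1%), and lower in 15 (11.0%). It was neither in 74 and not resolved in 21. The difference was within 5 points in 78 hairpins, and the median difference was 0. Of the 41 that differed, 22 had another major arm in each library, 12 turning to 3p in JB6 exosomes and 10 to 5p. Over all arm-named reads 45.7% were 3p in JB6 exosomes and 20.2% in B16 cells. In 9 of the 41 fewer than 100 reads stood behind the JB6 share. Arms were paired by name, so some reads cannot be assigned to a single hairpin. miR-199a and miR-199b were listed with the same 3p counts, and only miR-199b met the rule. miR-9 can come from 3 hairpins.

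let-7d gave the clearest switch. Its 3p arm had 55565 reads and its 5p arm 1033 in JB6 exosomes, a 3p share of 98.2% (98.1 to 98.3), against 4639 and 43872 reads in B16 cells, 9.56% (9.30 to 9.83). B16 exosomes had 28 and 98 reads, a 3p share of 22.2% (15.3 to 30.5). The abundant arm in JB6 exosomes was thus the passenger printed above, which does not carry the let-7 seed. Mirlet7d lies in an exon of the lincRNA 6720427I07Rik (chr13:48536012-48536114, minus strand), beside Mirlet7f-1 and Mirlet7a-1, whose guides were lower. let-7d-3p was 21.1-fold higher (20.5 to 21.8) and let-7d-5p 24.1-fold lower (22.7 to 25.6). Of 11 let-7 passengers compared it was the higher one, 8 were lower and 2 neither, or 6 and 3 with TMM factors and 1 not resolved.

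miR-423, from an intron of Nsrp1 (chr11:77078064-77078172, minus strand), switched the other way. It had 3628 reads of 3p and 181078 of 5p in JB6 exosomes, a 3p share of 1.96% (1.90 to 2.03), and 32349 and 7338 in B16 cells, 81.5% (81.1 to 81.9). B16 exosomes, with 81 and 29 reads, had 73.6%, on the side of the cells. miR-23b had 23 and 106 reads in JB6 exosomes, 17.8% (11.7 to 25.5), and 7314 and 96 in B16 cells, 98.7% (98.4 to 98.9). miR-342 fell from 96.6% to 28.9% (25.2 to 32.9) and the mirtron miR-877 from 73.2% to 21.7% (17.2 to 26.8). miR-331 had a listed 0 of 3p and 301 of 5p reads in JB6 exosomes, against 836 and 148.

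Among the hairpins with more 3p in JB6 exosomes, miR-145a had 605 and 51 reads, 92.2% (89.9 to 94.2), and 1822 and 6822 in B16 cells, 21.1% (20.2 to 22.0). In B16 exosomes it had 117 reads of 5p and a listed 0 of 3p. The neighbouring guide miR-143-3p was nearly level between the libraries while miR-145a-5p was 75.9-fold lower (57.6 to 102). miR-351 had 67.4% (60.002 to 74.2) against 1.52% (1.201 to 1.91). miR-708, of the miR-28 family, had 1513 reads of 3p and a listed 0 of 5p, against 252 and 292. miR-1934 had 72.6% (66.7 to 78.0) against 20.5% (13.6 to 29.0). miR-204, picked after its values were seen, had 1242 and 14 reads in JB6 exosomes, 98.9% (98.1 to 99.4), but a listed 0 of 3p and 60 of 5p in B16 cells. This hairpin lies in an intron of Trpm3 (chr19:22750605-22750672, plus strand).

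**Figure D3:**
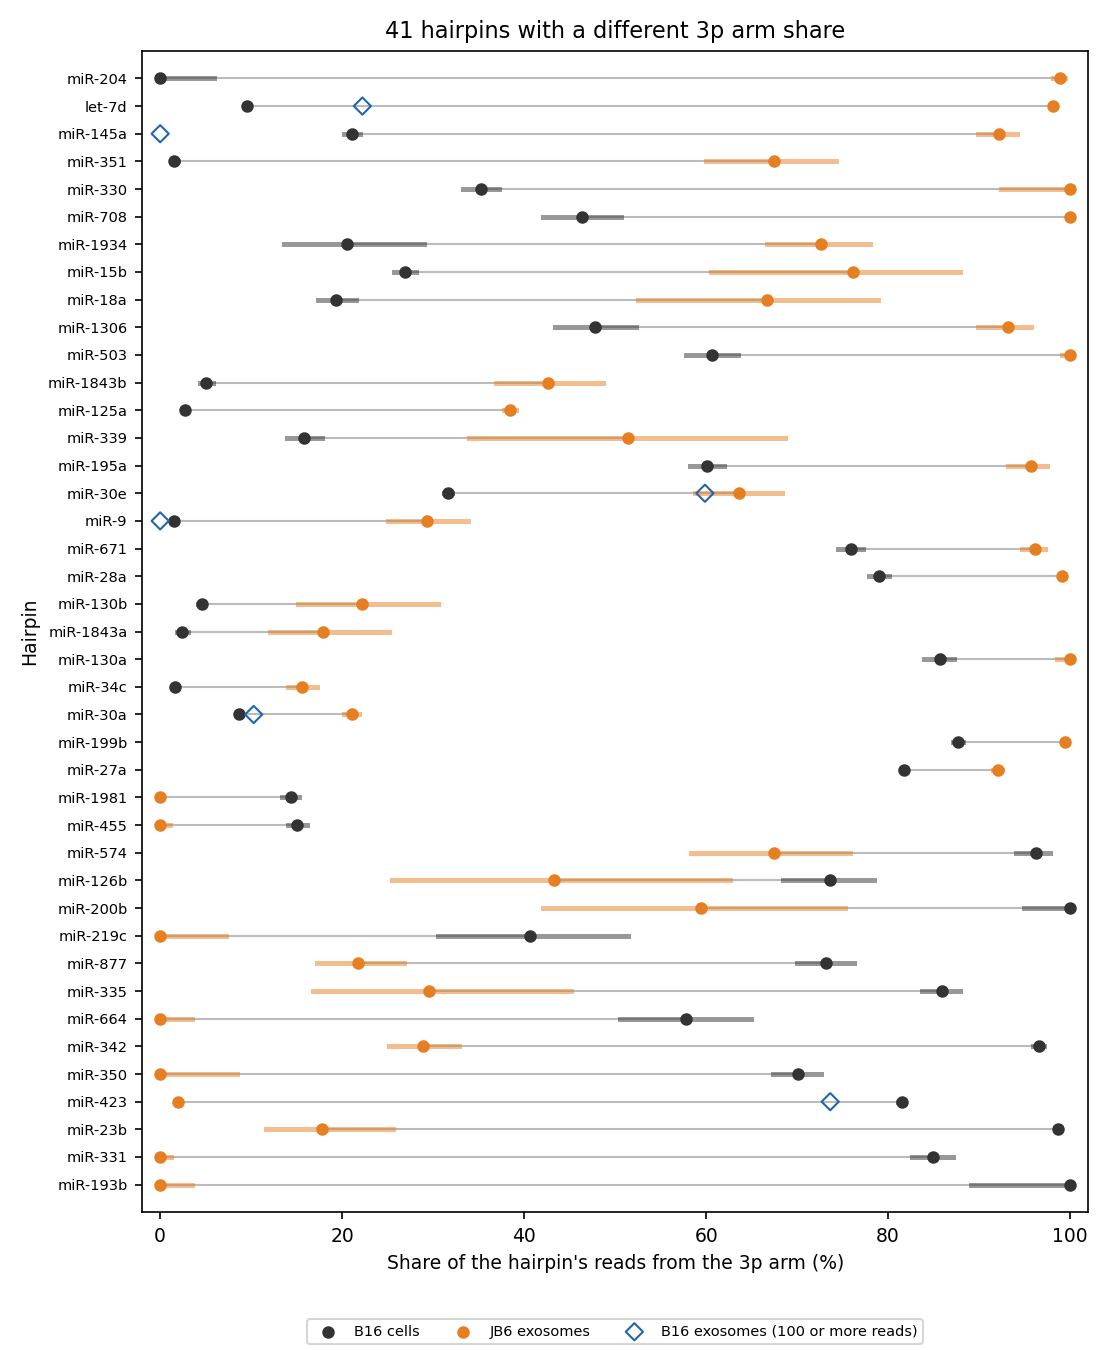
Share of each hairpin's reads from its 3p arm, in percent, for the 41 hairpins that met the rule, in B16 cells (black) and JB6 exosomes (orange), with exact 95% intervals as thick bars. Blue diamonds give B16 exosomes where they had 100 or more reads. An arm listed at 0 is drawn as 0 reads, though up to 9 can be hidden. The 26 hairpins with more 3p in JB6 exosomes stand above the 15 with more 5p, let-7d reaching 98.2% and miR-423 falling to 1.96%.

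Base composition differed between higher and lower miRNAs, a feature that the choice of miRNAs did not use. RefSeq sequences were matched for 442 of the 501. The median GC content was 54.5% for the higher and 47.4% for the lower miRNAs, at the same median length of 22 bases. Of 71 miRNAs below 40% GC, 9.86% were higher and 83.1% lower, with a median log2 ratio of -3.34. Of 145 from 40% to below 50%, 18.6% were higher and 70.3% lower, with a median of -2.20. Of 150 from 50% to below 60%, 31.3% were higher and 51.3% lower, with a median of -1.14, and of 76 at 60% or more, 35.5% and 48.7%, with a median of -0.83. The share that was higher thus grew with each class, and the medians of all classes stayed below 0 as scaled here, though the same shift applies to each of them. The printed relatives follow this order in part: miR-92b-3p with 63.6% GC and miR-92a-3p with 57.1% were higher, miR-25-3p, with as many G and C as A and U bases, was level and miR-32-5p with 31.8% was lower. miR-148a-3p and miR-148b-3p, at 40.9% each, and miR-146a-5p and miR-146b-5p, also at 40.9% each, lay on opposite sides as scaled here with the same GC content.

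For 102 miRNAs abundant enough in B16 cells to predict at least 20 reads in the B16 exosome library, the ratios of both exosome libraries were set side by side. Below 40% GC, 17 miRNAs had a median log2 ratio to B16 cells of -4.95 in JB6 exosomes and -0.66 in B16 exosomes. From 40% to below 50%, 43 miRNAs had -3.31 and -0.26, and at 50% or more 42 had -1.55 and -0.57. Both medians share the cell library, which also chose these miRNAs. The JB6 medians climbed with the class and the B16 exosome medians did not follow that order, and the difference between them was not tested. Within the 37 hairpins of the 41 above whose arms both had sequences, the arm gaining share had more GC in 19, less in 15 and the same in 3. Motifs searched on the mature strand as printed, GGAG and CCCU, gave little contrast. GGAG was in 9.26% of the higher, 9.09% of the lower and 14.2% of all miRNAs in the files with a sequence, and CCCU in 9.26%, 9.82% and 11.6%. U was the leading base of 43.5% of the higher and 41.1% of the lower miRNAs.

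**Figure D4:**
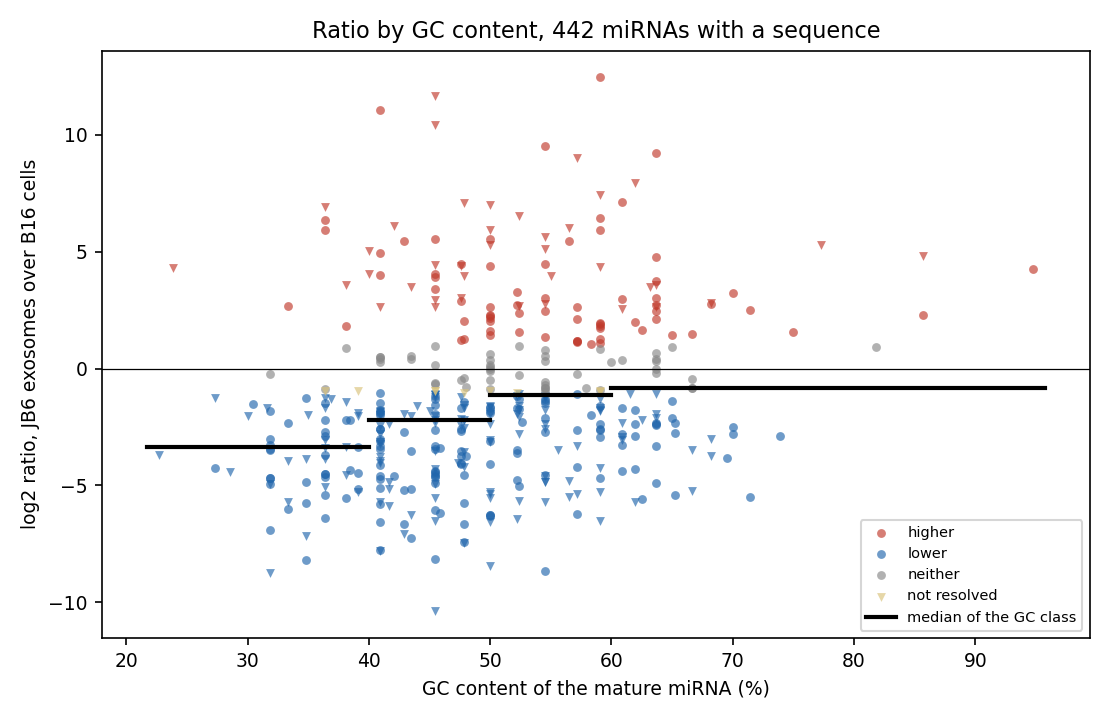
Log2 ratio of shares, JB6 exosomes over B16 cells, against the GC content of the mature miRNA in percent, for the 442 miRNAs with a RefSeq sequence. Black bars are the medians of 4 GC classes, which climb from -3.34 to -0.83. Triangles are miRNAs listed at 0 in 1 library, and both directions occur in every class.

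The families and marker lists above left out 285 compared miRNAs, of which 57 were higher, 181 lower, 38 neither and 9 not resolved. Over all 501 compared miRNAs 26.1% were higher and 60.7% lower. miR-21a-5p, raised in many tumours, had 40274 reads in JB6 exosomes and 465294 in B16 cells and was 6.55-fold lower (6.49 to 6.62). miR-378a-3p, from an intron of the metabolic gene Ppargc1b, had 51099 and 168291 reads and was 1.87-fold lower (1.85 to 1.89), short of the 2-fold rule, and its ratio was above 1 with TMM and DESeq2 factors. miR-1198-5p had 33803 and 10896 reads and was 5.47-fold higher (5.35 to 5.59), and miR-674-3p was 4.04-fold higher (3.94 to 4.15). miR-191-5p, often used as a reference miRNA, had 1382 and 29343 reads and was 12.04-fold lower (11.4 to 12.7). miR-210-3p, induced by hypoxia, had 202 and 10699 and was 30.05-fold lower (26.1 to 34.7). miR-184-3p, abundant in cornea, had 406 and 12170 and was 17.0-fold lower (15.4 to 18.8), while its share in B16 exosomes rested on 252 reads. miR-24-3p and miR-3074-5p overlap on opposite strands, and whether strand was used is not stated, so both counts are uncertain.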

How the data were processed

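Small RNA of B16 cells, B16 exosomes and JB6 exosomes was sequenced on an Illumina HiSeq instrument, 1 library each, per the series' design text. Build mm10, bcl2fastq and BWA were used per the submitters' processing notes. The sources used here do not give tool versions, the miRNA annotation, strand use or the handling of multi-mapping reads. The deposited files give a read count for every mature miRNA, not normalized, with values below 10 listed as 0, per the file headers and values. The authors also deposited a normalized value in RPM, equal within each file to the count times a constant. The total behind it was 8721363 in B16 cells and 5626936 in JB6 exosomes, and no source used here says what that total counts.

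The ratio of shares of summed miRNA counts was computed for miRNAs reaching 30 reads in JB6 exosomes and B16 cells together, with an exact conditional binomial (Clopper-Pearson) 95% interval, and 3p arm shares with exact 95% intervals and a conditional odds ratio. Because the reads carry no molecular identifiers that the sources mention, they are not independent molecules, and intervals cover counting error only. A listed 0 was set to 9 reads and gives a bound. An arm pair counted as different where the shares stayed 10 points apart for every count the listed 0 could hide. The interval had to exclude 1 at the count that brought the shares closest. Hairpin positions came from GENCODE vM21 (GRCm38), and sequences were matched by name to the RefSeq table. Python 3.11.15, SciPy 1.17.1, pandas 2.3.3, numpy 2.4.6, matplotlib 3.10.9, R 4.3.3, edgeR 4.0.16 (TMM factors only) and DESeq2 1.42.0 (size factors only) were used. The calculations were tested on simulated data.

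Alternatives covered scaling, the read minimum, the size rule, the reading of a listed 0, arm minimums and the cluster distance. Totals without miR-122-5p and miR-148a-3p were added after the data were seen. The members, the 32 miRNA lists and the rules were chosen with earlier results of these data known. By rule, the named miRNAs were the 10 leading ones of both libraries, the 15 highest and 15 lowest called ones by the interval bound nearest to 1 with 100 or more reads in the library with the larger count, the 10 called ones with the most reads that were listed at 0 on the other side, in each direction, up to 4 members of each list, the 10 arm pairs that differed most among those with 100 or more reads in each library, the 10 highest and 10 lowest scarce miRNAs, and the members of the 5 largest clusters. Seed and cluster partners, passengers, absent markers and the abundant miRNAs outside the lists that are also named were chosen after their values were seen.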

Additional observations from a re-analysis of the deposited data

How the results depend on the processing

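No paired analysis was possible because each group holds 1 library. With TMM and DESeq2 factors the number of lower miRNAs fell from 304 to 202 and 194, since every log2 ratio moved up by 1.35 and 1.45, and the number of higher ones stayed within 1.5 times. Among the named miRNAs TMM factors moved 15 ratios from below to above 1 and DESeq2 factors 17. Of these, 8 had been neither, and miR-25-3p, miR-99a-5p and miR-143-3p among them were then higher. The others, 7 and 9, had been lower, and none of them was then higher. With TMM and DESeq2 factors in turn, the log2 ratios were 0.075 and 0.17 for miR-155-5p, 0.31 and 0.41 for miR-203-3p, 0.067 and 0.17 for miR-204-5p, 0.029 and 0.13 for miR-27a-3p, 0.14 and 0.24 for miR-34c-5p, 0.089 and 0.19 for miR-450a-1-3p and 0.21 and 0.31 for miR-501-5p. With DESeq2 factors alone they were 0.017 for miR-181a-5p and 0.043 for miR-24-3p. Of 200 named ratios 160 kept their call with TMM factors and 157 with DESeq2 factors. When the 10 leading miRNAs of either library were left out of both totals 181 did, and 198 by the authors' RPM. Totals without miR-122-5p and miR-148a-3p gave 156 higher and 236 lower. A minimum of 100 reads over both arms left 9 hairpins with more 5p in JB6 exosomes, against 15, because fewer pairs were compared, and the 10 arm pairs named by rule kept their call under every alternative run. Clusters higher throughout numbered 5 within 50 kb, against 2, and clusters lower throughout numbered 5 with TMM factors, against 14.

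Depth limits what a listed 0 can show: in JB6 exosomes it hides up to 2.002 rpm and in B16 exosomes up to 197.0 rpm. Intervals leave out differences between cultures, extractions and library preparations, which 1 library a side cannot give.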

Other observations

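In B16 exosomes 6 of the 41 hairpins whose arm balance differed had 100 or more reads, and their 3p shares can be set beside those of the deep libraries. For miR-30e, B16 exosomes had 91 reads of 3p and 61 of 5p, a share of 59.9%, which lay next to the 63.6% of JB6 exosomes and apart from the 31.6% of B16 cells. For let-7d, miR-423, miR-30a, miR-9 and miR-145a the B16 exosome share lay nearer to that of the cells. miR-9, a neural hairpin, had 516 reads of 5p and a listed 0 of 3p in B16 exosomes, which allows up to 9 reads of 3p, against a 3p share of 29.3% in JB6 exosomes and 1.57% in B16 cells. miR-30a stood at 10.3% in B16 exosomes, 21.04% in JB6 exosomes and 8.63% in B16 cells.

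The clustered guides miR-143-3p and miR-145a-5p were counted at 2836 to 1 in JB6 exosomes, 41.8 to 1 in B16 cells and 29.7 to 1 in B16 exosomes, a quotient 67.9-fold larger in JB6 exosomes than in B16 cells (51.5 to 91.2). Summed miRNA counts made up 90.9% of the total behind the authors' RPM in B16 cells, 79.9% in JB6 exosomes and 5.39% in B16 exosomes.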
